A study of Mus musculus with 11 samples.

Results

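The 38 genes described here copy the genome: they load and open replication origins, polymerise DNA, supply thymidine nucleotides, rebuild chromatin behind the fork and switch on S phase. They were listed by symbol, and all 38 matched a row among the 53700 genes of the count table. All 38 were also among the 16639 genes with enough counts to be tested. The cells were short-term haematopoietic stem cells (labelled ST-HSC) sorted from bone marrow of C57BL/6j mice, and bulk RNA sequencing gave read counts per gene. Every host carried transplanted marrow of an acute myeloid leukaemia with the Flt3-ITD mutation and TET2 knockout. The hosts were labelled CXCL12 WT (titled Cre_neg) or CXCL12 KO (titled Cre_pos). The series' text places the deletion in the hosts' marrow environment and does not say whether the sorted cells were of donor or host origin. They received vehicle or cytarabine, doxorubicin and quizartinib together, an antimetabolite, an anthracycline and an inhibitor of the FLT3 kinase. Numbered as in the titles, WT vehicle comprised 3 libraries (240, 253 and 265) and KO vehicle 2 (249 and 275). WT treated comprised 3 (252, 262 and 266), as did KO treated (257, 263 and 276). The labels give no promoter for the Cre, no age, no sorting markers, no residual host cells and no statement that each library came from a separate animal. The p-values therefore measure the spread between these libraries, which may be partly technical.

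A cell prepares for S phase by loading the ring-shaped MCM helicase onto origins, a step carried out by the origin recognition complex with Cdc6 and Cdt1. Cdc45 and the GINS complex then join the helicase, polymerases copy the strands with the sliding clamp PCNA, and thymidylate synthesis keeps pace with demand. Most of these genes are known targets of E2F transcription factors, which the retinoblastoma proteins hold in check until late G1. Cytarabine blocks chain elongation and doxorubicin damages DNA through topoisomerase. In marrow, most long-lived stem cells are out of cycle, and progenitors cycle more.

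Promoter sequences are shown because the results below turn on genes of one pathway with opposite differences. The RefSeq promoter table (build GRCm38.p6) held 31 of the 38 genes. In the 250 bases before the transcription start, 4 E2F-like words were searched on both strands: TTCCCGC together with TTGGCGC, the variant TTCGCGC and finally TTGCCGC. At least 1 was present in 14 of the 31 genes (45.2%) and in 2435 of 27025 genes in the table (9.01%). With the 50 bases after the start included, at least 1 was present in 20 of the 31 (64.5%) and in 10.9% of all genes in the table. The word CCAAT, bound by NF-Y, was present on either strand in 19 of the 31 (61.3%) and in 37.5% of all genes in the table. A match describes letters and not a bound site. The windows below belong to 3 genes that were lower in WT treated than in WT vehicle libraries (Mcm6, Chaf1a and Hells) and 2 that were higher (Tyms and Pcna). They are written 5′ to 3′ in the direction of the gene, with E2F-like words and CCAAT in capitals on whichever strand they lie.
Mcm6 (chr1:128359706-128359955, minus strand): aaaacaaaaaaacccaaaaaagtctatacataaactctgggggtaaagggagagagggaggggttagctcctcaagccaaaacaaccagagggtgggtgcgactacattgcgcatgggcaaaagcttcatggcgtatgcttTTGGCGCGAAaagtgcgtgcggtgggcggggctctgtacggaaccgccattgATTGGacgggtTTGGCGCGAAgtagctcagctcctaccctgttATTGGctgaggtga
Chaf1a (chr17:56040166-56040415, plus strand): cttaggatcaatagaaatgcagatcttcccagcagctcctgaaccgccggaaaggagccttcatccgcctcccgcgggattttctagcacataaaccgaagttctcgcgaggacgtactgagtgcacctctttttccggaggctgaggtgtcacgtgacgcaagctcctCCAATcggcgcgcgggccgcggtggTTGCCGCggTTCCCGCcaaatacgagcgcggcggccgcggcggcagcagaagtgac
Hells (chr19:38930740-38930989, plus strand): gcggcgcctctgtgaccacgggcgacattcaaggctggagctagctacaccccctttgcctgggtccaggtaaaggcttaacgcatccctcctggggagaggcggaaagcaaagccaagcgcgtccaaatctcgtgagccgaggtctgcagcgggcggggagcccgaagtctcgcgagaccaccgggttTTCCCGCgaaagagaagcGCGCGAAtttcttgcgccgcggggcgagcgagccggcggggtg
Tyms (chr5:30073626-30073875, minus strand): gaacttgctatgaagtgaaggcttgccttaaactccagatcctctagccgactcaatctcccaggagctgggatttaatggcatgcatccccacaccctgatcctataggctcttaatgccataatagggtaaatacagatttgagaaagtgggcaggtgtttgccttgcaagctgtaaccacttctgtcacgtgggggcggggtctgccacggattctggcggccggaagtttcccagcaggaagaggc
Pcna (chr2:132253181-132253430, minus strand): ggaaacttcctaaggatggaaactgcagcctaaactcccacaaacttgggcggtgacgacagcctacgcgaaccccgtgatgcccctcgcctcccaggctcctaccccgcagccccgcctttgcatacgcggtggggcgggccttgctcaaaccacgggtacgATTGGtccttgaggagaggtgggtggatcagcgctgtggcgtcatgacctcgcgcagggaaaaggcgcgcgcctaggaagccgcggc
The Mcm6 window held 4 E2F-like words, in pairs that overlap on opposite strands, and the Chaf1a and Hells windows held 2 each. No such word stood in the Tyms and Pcna windows. Among the members higher in WT treated than in WT vehicle libraries without overlap, 0 of the 6 with a window held an E2F-like word. Among those lower without overlap, 4 of 9 did. The 3 lower genes shown are among these 4, so the windows shown do not stand for the whole lower set. With the 50 bases after the start included, Rfc4 of the higher and Mcm3, Lig1 and E2f2 of the lower members also held such a word. A gene counted if any of its windows matched. The lower members Mcm7, Lig1 and E2f2 had more than 1 window, and the higher members had 1 each. The counts by direction are small, were looked at after the values were seen and carry no test.

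The libraries held 8.13 to 31.1 M gene counts, and every treated library was deeper than every vehicle library. Library 257 lay nearer to the mean of the WT treated libraries than to the mean of its 2 KO treated partners in 27 of the 38 genes. Libraries 253 and 265 had counts in 13589 and 14206 genes, fewer than the others (17207 to 22121). Beside the replication genes, erythroid markers (17 genes) summed to 180 to 1358 CPM (gene counts per M counts of a library) in the WT libraries, 846 and 18654 in KO vehicle 249 and 275, and 48274, 23497 and 113346 in KO treated 257, 263 and 276. Granulocyte markers (14 genes) summed to 10751 to 160659 CPM, lymphoid markers (9 genes) to 28.6 to 101 CPM and stromal and endothelial markers (8 genes) to 30.4 to 120 CPM. Kit, a receptor that defines stem and progenitor cells, stood at 20.5 to 50.7 CPM in WT treated libraries and 20.5 in KO treated 257. It stood at 73.9 to 243 CPM in the other 7 libraries. Slamf1, a marker of the most primitive stem cells, had no counts in WT vehicle libraries or in KO treated 257 and at most 4.16 CPM elsewhere. The 6 stem and progenitor markers listed, Kit and Slamf1 among them, did not share the direction of Kit. They summed to 527 to 1399 CPM in WT vehicle and 1033 to 1651 CPM in WT treated libraries. Between these groups 3 of the 6 were higher (10.1% of all genes) and 0 lower (8.11%) at an unadjusted p under 0.05. Cxcl12 was at 0 to 14.4 CPM, which does not check the labels, since the deletion lies in the niche. In bulk RNA, fewer cells in S phase and less message per cell cannot be told apart.

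Levels are given as CPM after TMM scaling, and between genes only as CPM per kilobase of the longest principal transcript. On the second scale the median over libraries was highest for Mcm6 (185), followed by Pcna (169), Tipin (126), Mcm3 (120) and Mcm7 (108). The lowest were Fen1 (0.843), Orc1 (2.17) and Pole (4.06). Summed over all 38 genes the levels were 3692, 4533 and 4326 CPM in WT vehicle 240, 253 and 265, and 5347 and 5027 CPM in KO vehicle 249 and 275. They were 3517, 4429 and 4336 CPM in WT treated 252, 262 and 266, and 3995, 4228 and 5898 CPM in KO treated 257, 263 and 276. The total thus overlapped between WT vehicle and WT treated libraries, while the MCM and thymidine sums differed in opposite directions, as the heat map by role shows.

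**Figure D1:**
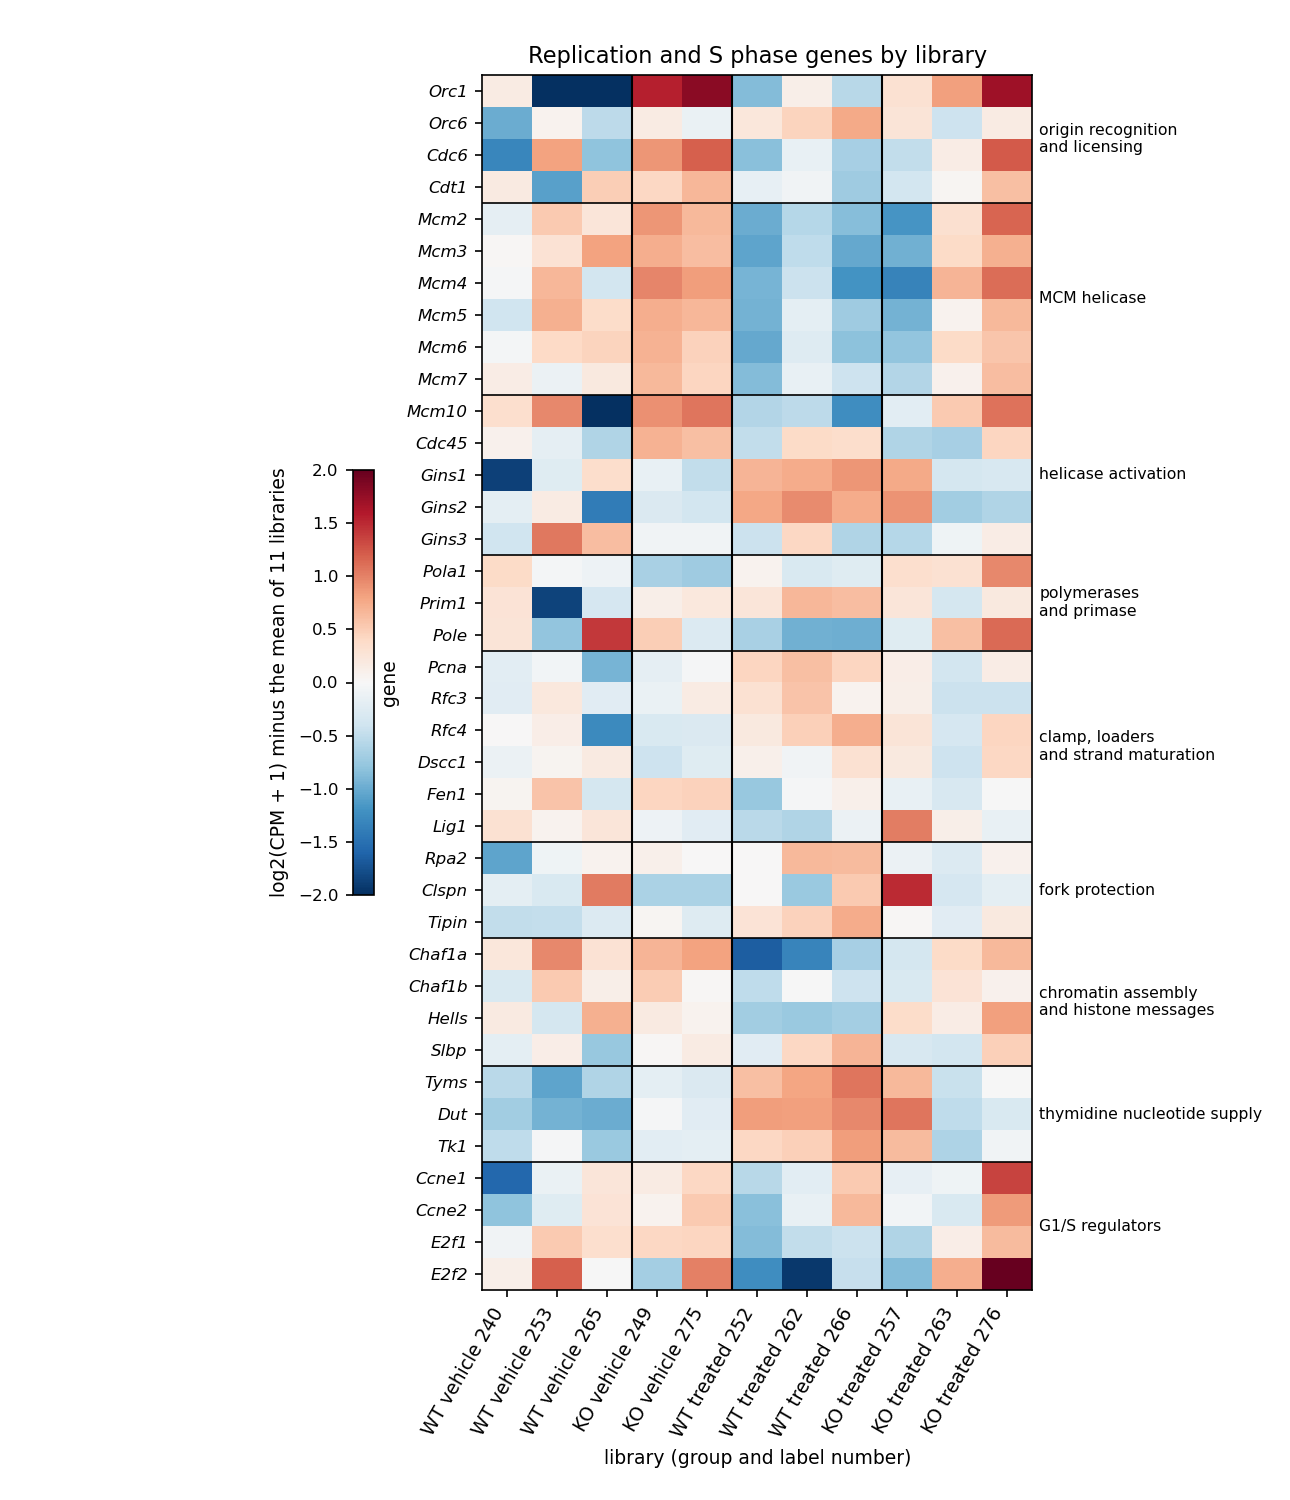
Level of each of the 38 genes (rows, grouped by role) in each of the 11 libraries (columns), as log2(CPM + 1) minus the gene's mean over the libraries, with colours capped at 2 either way. The 6 MCM genes are blue and Tyms, Dut and Tk1 are red in WT treated 252, 262 and 266 and in KO treated 257, and KO treated 263 and 276 do not share that pattern.

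In the WT niche, treated libraries had less message for the MCM helicase, the chromatin assembly subunit Chaf1a, the helicase-like Hells and the activators E2f1 and E2f2, and more for Tyms, Dut and Tk1, the clamp Pcna and the fork protein Tipin. No member passed an adjusted p of 0.05 in edgeR (0 of 38, with 0% of all tested genes called), where the smallest adjusted p was 0.172. Before adjustment 15 of 38 members had a p under 0.05, against 18.2% of all genes. Of these, 8 were higher (10.1% of all genes) and 7 lower (8.11%). DESeq2 called 5 members (Tyms, Dut and Tipin higher, Chaf1a and Mcm3 lower), against 6.65% of all genes, and limma voom called 0. edgeR itself called 3 with no filter on low counts (0.768% of all genes) and 11 with a term for reads outside genes (12.6%). Groups did not overlap in 9 members that were higher (17.5% of all genes) and 10 that were lower (10.1%). The median log2 fold change over the 38 was -0.27 with 18 above 0 (52.6% of all genes were), beside a median of 0.09 for all genes. That median depended on the WT vehicle libraries: it was 0.12 without 265 and 0.25 without 253 and 265, which leaves 1 WT vehicle library. Without 240, edgeR called 1 member, Orc1, as higher (1.15% of all genes).

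The 6 subunits of the MCM ring, Mcm2 to Mcm7, were all lower on average. Their summed level was 1561, 2158 and 2136 CPM in WT vehicle 240, 253 and 265 against 827, 1308 and 950 CPM in WT treated 252, 262 and 266. Every treated sum lay below every vehicle sum. Mcm3 stood at 300, 362 and 515 CPM in WT vehicle against 142, 207 and 145 CPM in WT treated libraries. Mcm6 stood at 402, 543 and 562 CPM against 203, 345 and 235 CPM. Both separated the groups, as did Mcm2, Mcm4 and Mcm7. Mcm5 stood at 228, 494 and 387 CPM against 155, 261 and 183 CPM, so that only treated 262 and vehicle 240 crossed. Its log2 fold change was -0.89 ± 0.42 (SE; edgeR adjusted p = 0.286). The median over the 6 was -0.97, with 0 of 6 above 0 (52.6% of all genes were above 0). It was -1.78 with the term for reads outside genes and -0.51 without 253 and 265, which leaves 1 WT vehicle library.

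Thymidine nucleotide supply went the other way. Tyms, which makes thymidylate, stood at 85.4, 59.2 and 81.9 CPM in WT vehicle 240, 253 and 265 and at 190, 216 and 262 CPM in WT treated 252, 262 and 266. The groups were well apart, with a log2 fold change of 1.56 ± 0.33 (SE; edgeR adjusted p = 0.172, DESeq2 adjusted p = 0.00366). Dut, which clears dUTP so that uracil is not built into DNA, stood at 112, 94.0 and 91.1 CPM against 324, 321 and 355 CPM. Every treated library held more than any vehicle library, with a log2 fold change of 1.75 ± 0.40 (edgeR adjusted p = 0.172, DESeq2 adjusted p = 0.00833). Tk1, the thymidine salvage kinase, stood at 84.7, 119 and 71.8 CPM against 161, 169 and 218 CPM, again without overlap. As a ratio to the MCM sum, the sum of these 3 genes was 0.181, 0.126 and 0.115 in WT vehicle libraries and 0.816, 0.539 and 0.879 in WT treated libraries. A pseudogene of Tyms and 2 of Pcna are annotated, and the handling of reads shared with them is not given in the sources used here.

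**Figure D2:**
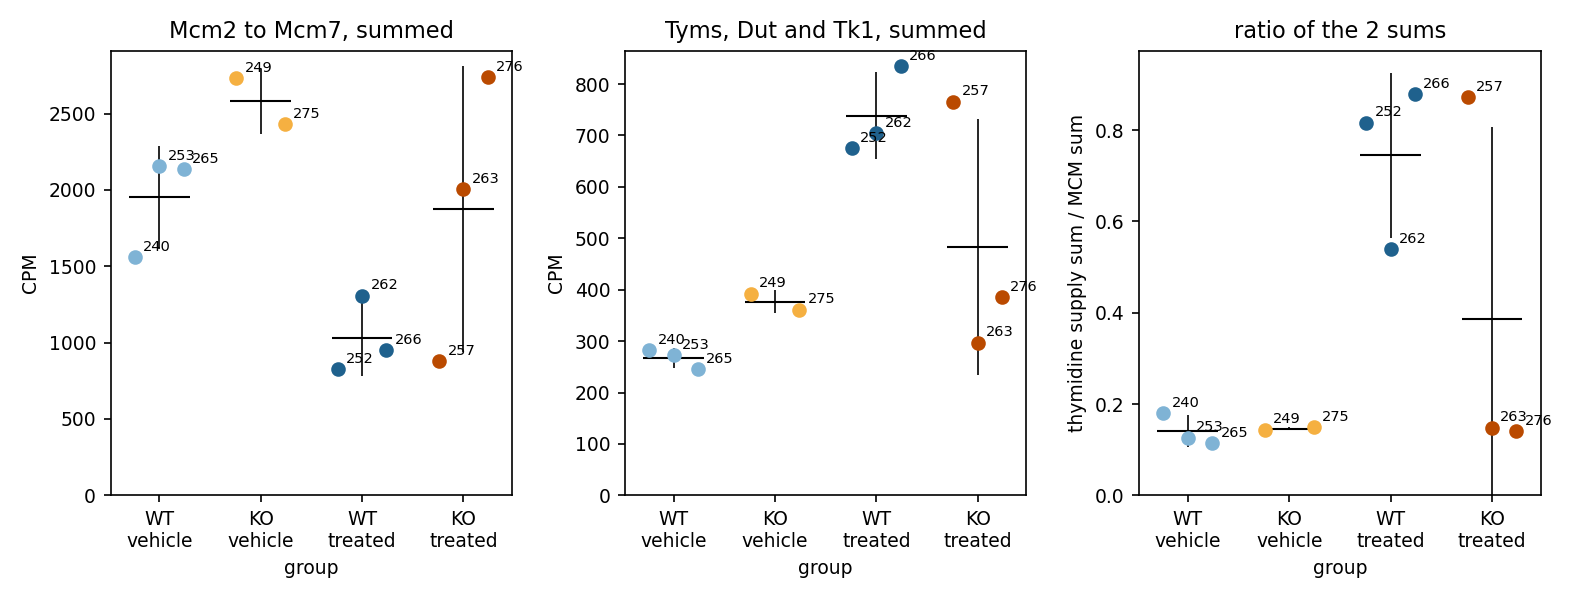
Summed CPM of Mcm2 to Mcm7 (left), summed CPM of Tyms, Dut and Tk1 (middle) and the ratio of the second sum to the first (right) in each library, with the group mean (bar) and SD (line; cut at 0 in the right panel). The 3 WT treated libraries and KO treated 257 have ratios of 0.539 to 0.879, and the other 7 libraries lie between 0.115 and 0.181.

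Among the licensing genes, Orc6, a subunit of the origin recognition complex, was higher without overlap in WT treated libraries (31.6, 66.9 and 44.1 CPM in vehicle against 74.5, 86.8 and 108 CPM). Cdc6, the loader of the MCM ring, ranged from 17.3 to 77.6 CPM in vehicle and from 24.3 to 39.8 CPM in treated libraries, and the groups overlapped. Its log2 fold change was -0.39 ± 0.57 (edgeR adjusted p = 0.756) and turned to 0.54 without library 253. Cdt1, its partner in loading, also overlapped (31.5 to 95.6 CPM against 41.3 to 64.4 CPM). Orc1, the ATPase subunit of the origin complex, had 101, 2 and 2 reads in WT vehicle 240, 253 and 265, and no direction is read from it.

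The genes that turn the loaded ring into a working helicase were mixed. The GINS subunits Gins1 and Gins2 were higher without overlap: Gins1 stood at 10.4, 33.9 and 51.6 CPM in vehicle against 65.4, 68.1 and 75.1 CPM in treated libraries. Gins2 stood at 43.0, 55.6 and 18.1 CPM against 85.2, 96.0 and 82.9 CPM, but 67.3% of its exon length overlaps Gse1 on the opposite strand and the library kits keep no strand. Gins3 overlapped between groups (13.4 to 38.3 CPM against 11.4 to 24.1 CPM). Mcm10, a scaffold of the helicase, ranged from 4.31 to 50.6 CPM in vehicle and from 10.2 to 17.4 CPM in treated libraries. Cdc45 also overlapped, at 43.2 to 70.4 CPM against 46.5 to 86.0 CPM.

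Polymerase genes overlapped between WT vehicle and WT treated libraries. Pole, the catalytic subunit of the leading-strand polymerase, stood at 41.3, 19.5 and 93.8 CPM in vehicle and 21.7, 17.2 and 17.0 CPM in treated libraries, with vehicle 253 inside the treated range. Pola1, the polymerase alpha subunit that extends primers, ranged from 68.8 to 96.7 CPM against 60.2 to 77.8 CPM. Prim1, the primase, ranged from 19.9 to 90.5 CPM against 88.1 to 118 CPM, and only vehicle 240 reached the treated range.

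Of the clamp, loader and strand maturation genes 4 of 6 were above 0 for treated against vehicle in the WT niche, and of the fork genes 2 of 3, beside 52.6% of all genes. At an unadjusted p under 0.05, Pcna, Rpa2 and Tipin were higher (10.1% of all genes) and 0 were lower (8.11%). Pcna, the sliding clamp, stood at 227, 252 and 137 CPM in vehicle against 354, 399 and 355 CPM in treated libraries. The groups were apart, with a log2 fold change of 0.85 ± 0.30 (edgeR adjusted p = 0.194). Rfc4, a clamp loader subunit, was also higher without overlap (69.9, 76.1 and 28.1 CPM against 79.5, 96.7 and 115 CPM), and Rfc3 and Dscc1 overlapped. Lig1, which joins lagging-strand fragments, went the other way, at 232, 196 and 222 CPM against 129, 123 and 173 CPM without overlap. Tipin, which with Timeless steadies the fork, stood at 161, 163 and 188 CPM against 275, 314 and 382 CPM. Its groups were apart, and its log2 fold change was 0.92 ± 0.26 (edgeR adjusted p = 0.173, DESeq2 adjusted p = 0.0200). Rpa2, which coats single strands, ranged from 65.3 to 145 CPM in vehicle and from 138 to 215 CPM in treated libraries. Clspn, the checkpoint adaptor claspin, overlapped. Fen1 had at most 3.44 CPM in any library, and 84.2% of its exon length overlaps Tmem258 or Gm10143 on the opposite strand, so its level is uncertain.

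Chromatin genes held the largest decrease among the 38 in this comparison. Chaf1a, the large subunit of the factor that deposits histones on new DNA, stood at 48.1, 81.2 and 50.5 CPM in WT vehicle 240, 253 and 265 and at 12.5, 15.8 and 25.7 CPM in WT treated 252, 262 and 266. The groups did not overlap, and the log2 fold change was -1.74 ± 0.40 (edgeR adjusted p = 0.172, DESeq2 adjusted p = 0.00276). Its reads carry a limit, since 52.5% of its exon length overlaps Ubxn6 on the opposite strand. The partner subunit Chaf1b overlapped between groups (67.3 to 121 CPM against 58.3 to 83.3 CPM). Hells, a remodelling ATPase needed for DNA methylation, stood at 105, 73.0 and 152 CPM against 56.7, 55.4 and 57.4 CPM, without overlap. Slbp, which binds histone messages, overlapped. Of the regulators, E2f1 stood at 55.6, 84.8 and 73.6 CPM against 31.5, 41.4 and 43.2 CPM, and all treated libraries lay below all vehicle libraries. Its log2 fold change was -0.88 ± 0.35 (edgeR adjusted p = 0.224). E2f2 was also lower without overlap (31.1, 66.8 and 28.3 CPM against 11.5, 6.71 and 20.4 CPM). The cyclins Ccne1 and Ccne2, which activate Cdk2 at S phase entry, overlapped, with a log2 fold change for Ccne1 of 0.32 ± 0.56 (edgeR adjusted p = 0.803) that was -0.07 without library 240.

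In the KO niche the same treatment gave small differences for most members. No member passed in edgeR (0 of 38, 0% of all genes), DESeq2 (0.138% of all genes) or limma voom, and 1 member had an unadjusted p under 0.05 against 3.68% of all genes. It was higher (2.7% of all genes; 0.974% were lower). That member was Pola1, at 47.0 and 45.1 CPM in KO vehicle 249 and 275 and 94.0, 92.1 and 146 CPM in KO treated 257, 263 and 276. All 3 treated libraries lay above both vehicle libraries, with a log2 fold change of 1.26 ± 0.34 (unadjusted p = 0.00287, edgeR adjusted p = 1). Groups did not overlap in 2 members that were higher, Pola1 and Clspn (12.3% of all genes), and 4 that were lower, Mcm5, Cdc45, Fen1 and Chaf1a (10.1%). Without library 257 the counts were 3 and 7, beside 21.5% and 17.1% of all genes. The median over the 38 was -0.09, with 17 above 0 (56.1% of all genes were), beside 0.12 for all genes. It was -0.30 without library 276 and 0.07 without 263.

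The KO treated libraries lay far apart from each other. The MCM sum was 2730 and 2430 CPM in KO vehicle 249 and 275 and 878, 2004 and 2738 CPM in KO treated 257, 263 and 276. Library 257 was at the level of the WT treated libraries, and 276 was at the level of KO vehicle 249. The thymidine supply sum was 392 and 361 CPM against 766, 297 and 386 CPM, again with 257 apart. Its ratio to the MCM sum was 0.873 in 257, 0.148 and 0.141 in 263 and 276, and 0.144 and 0.149 in the KO vehicle libraries. Cdc45 (107 and 101 CPM against 43.3, 41.1 and 88.9 CPM) had a log2 fold change of -0.85 ± 0.42 (edgeR adjusted p = 1). Clspn (20.0 and 20.0 CPM against 90.6, 24.9 and 27.6 CPM) had one of 1.25 ± 0.67 and Lig1 (174 and 160 CPM against 381, 204 and 168 CPM) one of 0.59 ± 0.37, both with an edgeR adjusted p of 1. Both of these genes were highest of all 11 libraries in 257. Of the remaining genes followed in every comparison, Mcm5 differed by -0.63 ± 0.46, Cdc6 by -0.59 ± 0.63, Tyms by 0.38 ± 0.36, Pcna by 0.09 ± 0.33, Ccne1 by 0.26 ± 0.63 and E2f1 by -0.29 ± 0.38 on the log2 scale, each with an edgeR adjusted p of 1.

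Between niches in treated hosts, Chaf1a, Hells, Pole and E2f2 had the smallest p among the members, each with more message in the KO niche. The comparison shares the WT treated libraries with treated against vehicle in the WT niche. In edgeR 0 of 38 members were called (0% of all genes), and the smallest adjusted p among them was 0.383. Without adjustment, 11 members had a p under 0.05 (10.6% of all genes): 10 were higher (7.13%) and 1, Tyms, was lower (3.5%). DESeq2 called 2 members, Chaf1a and Hells, both higher (1.5% of all genes), and limma voom called 23, of which 12 were higher and 11 lower, when 25.8% of all genes were called. Groups did not overlap in 6 higher members (9.71% of all genes) and 2 lower ones, Pcna and Tipin (9.56%). The median was 0.39 with 22 of 38 above 0 (53.9% of all genes were), beside 0.10 for all genes, but it was -0.01 without library 276.

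Chaf1a stood at 12.5, 15.8 and 25.7 CPM in WT treated 252, 262 and 266 and at 32.2, 53.9 and 65.1 CPM in KO treated 257, 263 and 276. The groups were apart even with 257, and the log2 fold change was 1.49 ± 0.39 (edgeR adjusted p = 0.383, DESeq2 adjusted p = 0.0275). Hells stood at 56.7, 55.4 and 57.4 CPM against 120, 103 and 165 CPM. Here 257 sat with its own group, and the log2 fold change was 1.20 ± 0.32 (edgeR adjusted p = 0.383, DESeq2 adjusted p = 0.0344). Pole stood at 21.7, 17.2 and 17.0 CPM against 29.1, 52.6 and 76.9 CPM; its log2 fold change was 1.50 ± 0.55 (edgeR adjusted p = 0.434). The values of E2f2 were 11.5, 6.71 and 20.4 CPM against 15.2, 47.6 and 128 CPM, so that 257 lay inside the WT range, with a log2 fold change of 2.30 ± 0.76 (edgeR adjusted p = 0.409). Orc1, Mcm10 and Pola1 were the other members higher without overlap.

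Among the MCM genes the log2 fold changes were 1.19 ± 0.47 for Mcm2, 1.05 ± 0.41 for Mcm3, 1.29 ± 0.52 for Mcm4 and 0.82 ± 0.37 for Mcm6. Each had an unadjusted p under 0.05 and groups that overlapped, and their edgeR adjusted p-values were 0.434, 0.434, 0.438 and 0.470. Tyms was 190, 216 and 262 CPM in WT treated and 195, 91.5 and 124 CPM in KO treated libraries, a log2 fold change of -0.70 ± 0.32 (edgeR adjusted p = 0.470). Pcna was 354, 399 and 355 CPM against 286, 202 and 292 CPM, a log2 fold change of -0.51 ± 0.30 (edgeR adjusted p = 0.575). E2f1 was 31.5, 41.4 and 43.2 CPM against 38.1, 64.1 and 91.1 CPM, a log2 fold change of 0.74 ± 0.35 (edgeR adjusted p = 0.481). Only Pcna of these separated the groups. Differences for Mcm5 (0.65 ± 0.42), Cdc6 (1.0 ± 0.58) and Ccne1 (0.57 ± 0.56) had edgeR adjusted p-values of 0.622, 0.570 and 0.791.

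Leaving out library 257 changed the calls of this comparison. edgeR then called 9 members, with Mcm2, Mcm3, Mcm4, Mcm6, Chaf1a, Hells and E2f2 higher in the KO niche and Tyms and Dut lower, when 9.26% of all tested genes were called. The log2 fold change of Chaf1a was then 1.72 (edgeR adjusted p = 0.0186), that of Hells 1.25 (0.0385), that of E2f2 2.77 (0.0353) and that of Tyms -1.05 (0.0345). Groups did not overlap in 17 higher and 10 lower members, beside 28.1% and 23.6% of all genes. The choice of 257 was made after its values were seen. It had the largest share of reads outside annotated genes (30.4%) and of reads at several places (30.0%), and the part of these shares in the result was not tested.

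Between niches in vehicle hosts, most members were slightly higher in the KO niche: 29 of 38 were above 0 (48.7% of all genes were), with a median of 0.30 beside 0.00 for all genes. No member was called by edgeR (0 of 38, 0% of all genes), by DESeq2 (1.35% of all genes) or by limma voom. Only 2 of 38 had an unadjusted p under 0.05 (6.78% of all genes): 1 higher (4.8%) and 1 lower (1.98%). The higher one, Orc1, had 101, 2 and 2 reads in WT vehicle 240, 253 and 265 and 417 and 546 reads in KO vehicle 249 and 275. Its log2 fold change of 3.14 ± 1.29 (edgeR adjusted p = 0.729) therefore rests on the near-absence of its reads in 253 and 265, and without 240 it was the 1 member that edgeR called (0.515% of all genes). The lower one, Pola1, stood at 96.7, 72.6 and 68.8 CPM against 47.0 and 45.1 CPM without overlap, with a log2 fold change of -0.78 ± 0.33 (edgeR adjusted p = 0.729). Groups did not overlap in 10 higher members (13.2% of all genes), among them Mcm2, Mcm4, Mcm6, Mcm7, Tyms and Dut, and 4 lower ones (7.47%). Without 253 and 265, which leaves 1 WT vehicle library, 28 were higher and 7 lower, beside 36.1% and 36.8% of all genes.

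Cdc6 was 17.3, 77.6 and 24.8 CPM in WT vehicle 240, 253 and 265 and 81.9 and 102 CPM in KO vehicle libraries. Both KO libraries were above all WT ones, with a log2 fold change of 1.20 ± 0.63 (edgeR adjusted p = 0.735). Cdc45 was 70.4, 58.0 and 43.2 CPM against 107 and 101 CPM, also without overlap, with a log2 fold change of 0.86 ± 0.42 (edgeR adjusted p = 0.729). Mcm5 (0.39 ± 0.46), Pcna (0.25 ± 0.33), Tyms (0.48 ± 0.35), Ccne1 (0.63 ± 0.62) and E2f1 (0.14 ± 0.38) differed by less than 2 SE.

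Whether the treatment difference depended on the niche was tested as the interaction, the KO response minus the WT response on the log2 scale. edgeR, DESeq2 (0.349% of all genes called) and limma voom each called 0 of 38, and the smallest edgeR adjusted p of a member was 0.767. The estimate was above 0 in 18 of 38 (53.6% of all genes). An unadjusted p under 0.05 was found for 6 members (6.31% of all genes): Pola1, Pole, Lig1 and Hells were higher (3.04%) and Tyms and Dut lower (3.27%). Pola1 gave 1.51 ± 0.44, Hells 1.32 ± 0.48, Lig1 1.20 ± 0.50 and Tyms -1.18 ± 0.47, each with an edgeR adjusted p of 0.767. Estimates for Mcm5 (0.26 ± 0.63), Cdc6 (-0.20 ± 0.85), Pcna (-0.76 ± 0.44), Ccne1 (-0.05 ± 0.84) and E2f1 (0.60 ± 0.52) were within 2 SE of 0. A difference between the niches in the treatment response of these genes is thus not shown by this test.

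**Figure D3:**
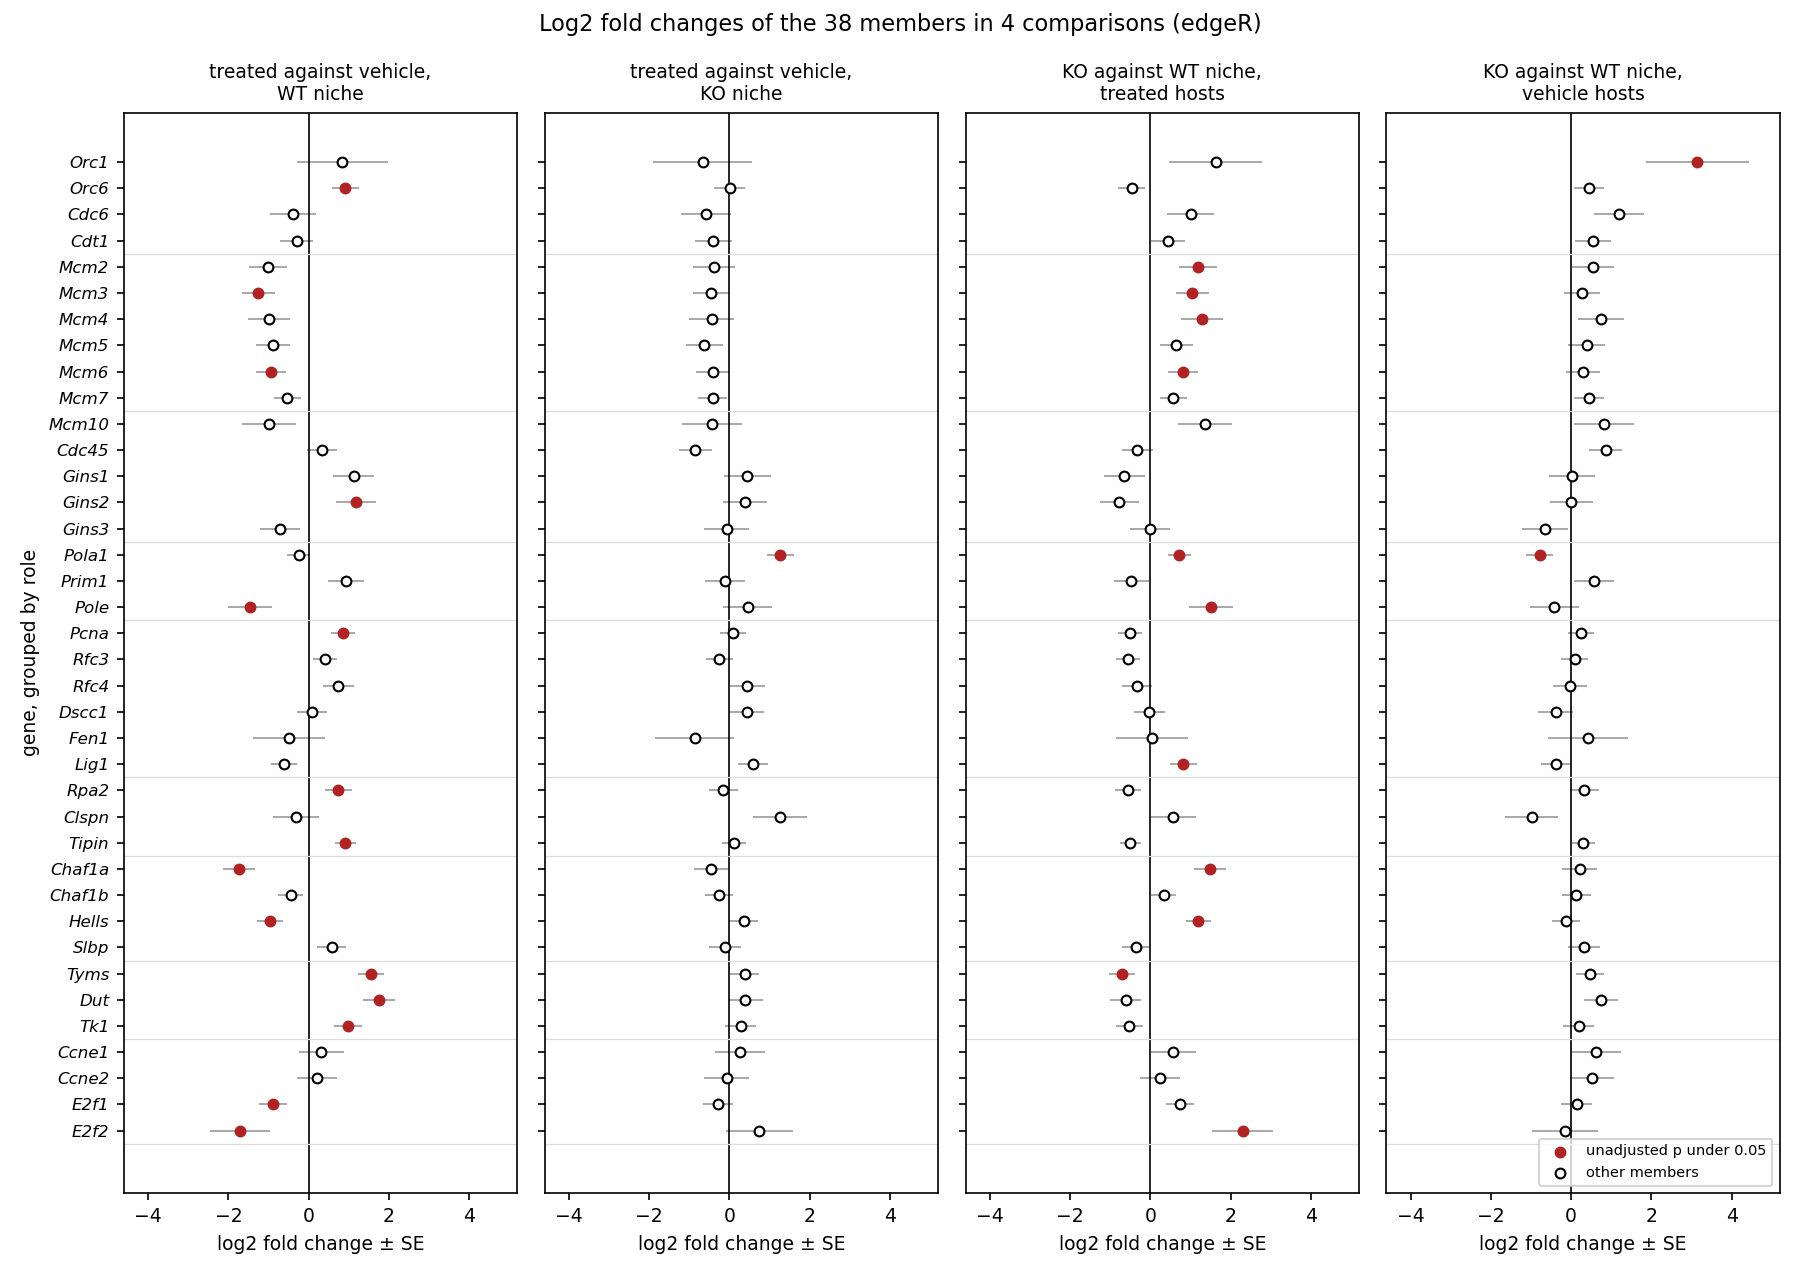
Log2 fold change with its SE (horizontal line) for each of the 38 genes, grouped by role, in the 4 comparisons of 2 groups from the edgeR fit; filled red points have an unadjusted p under 0.05. In the WT niche 15 points are filled on both sides of 0, in the KO niche 1 (Pola1), between niches 11 in treated and 2 in vehicle hosts.

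The split of the module went with transcript length as well as with role, and the part of each was not tested. Members of at most the median length (2646 bases) were above 0 in 14 of 19 cases for treated against vehicle in the WT niche (median 0.57), and longer members in 4 of 19 (median -0.89). All tested genes divided at the same length had medians of 0.53 and -0.40. For KO against WT in treated hosts, 5 of 19 shorter and 17 of 19 longer members were above 0 (medians -0.36 and 0.83), beside -0.35 and 0.59 for all genes. For each library, the level of a gene was also taken as log2(CPM + 1) minus the gene's mean over the 11 libraries. Across genes, Spearman's rho of this relative level with length was -0.32, -0.45 and -0.42 in WT treated 252, 262 and 266. It was -0.27 in KO treated 257 and between 0.01 and 0.44 in the other 7 libraries. The libraries with low MCM sums were thus also those with fewer counts on long transcripts relative to the other libraries. Genes of a library share its depth and chemistry, and these correlations are descriptions.

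Removing each library's trend with length shrank some differences and not others. In the WT niche the MCM median went from -0.97 to -0.57, and the median of Tyms, Dut and Tk1 from 1.56 to 1.58. That median was the value of Tyms as counted and of Dut with the trend removed, so it does not show that the genes were unchanged. As counted, Tyms was 1.56, Dut 1.75 and Tk1 0.99. With the trend removed, Tyms had a log2 fold change of 1.93, Dut 1.58, Chaf1a -1.29 and Tipin 0.67, with edgeR adjusted p-values of 0.207, 0.207, 0.236 and 0.251. Pcna was 0.41 (edgeR adjusted p = 0.504). At an unadjusted p under 0.05, 4 members were higher and 6 lower, against 13.9% of all genes. Between niches in treated hosts the MCM median went from 0.94 to 0.63, that of the 3 thymidine genes from -0.61 to -0.40, and Chaf1a from 1.49 to 0.83. With the length trend left in, these medians also depended on single libraries and on the tool. The MCM median was 0.49 without 276, and the thymidine median was -1.05 without 257, -0.30 without 263 and -1.09 with limma voom. With the trend removed, 4 members were higher and 1 lower between niches in treated hosts at an unadjusted p under 0.05, against 5.78% of all genes. No member was called with the trend removed in any of the 5 contrasts. In the WT niche as counted, the 4 of 19 longer members above 0 were Tyms, Gins2, Ccne2 and Orc1. Of these, Gins2 overlaps Gse1 over 67.3% of its exon length, and no direction is read from Orc1. The shorter members below 0 were Chaf1b, Cdc6, Cdt1, Gins3 and Fen1, while 14 of 19 shorter members were above 0. The length used for Tyms was that of its longest principal transcript (3163 bases), and other lengths were not tested.

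**Figure D4:**
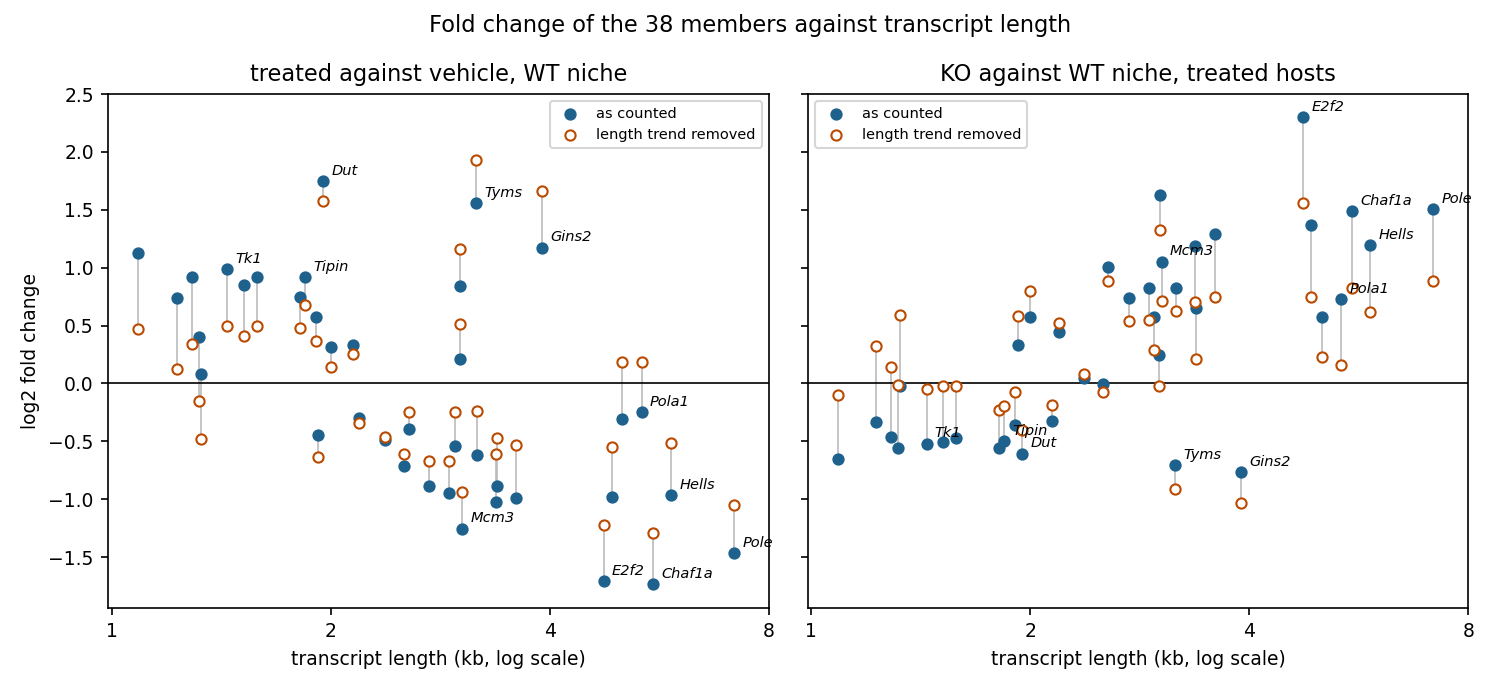
Log2 fold change of each of the 38 genes against transcript length in kilobases (log axis) for treated against vehicle in the WT niche (left) and KO against WT in treated hosts (right), as counted (filled) and with each library's length trend removed (open), joined by a line per gene. Long genes such as Chaf1a and Hells move towards 0 once the trend is removed, while Tyms moves from 1.56 to 1.93 on the left.

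Of 41 further replication genes tested, 4 were higher (10.1% of all genes) and 6 lower (8.11%) at an unadjusted p under 0.05 in WT treated against WT vehicle libraries. The share that was higher is near that of all genes, and the share that was lower is above it, a difference that was not tested. Of the 41, 0 were called by edgeR (median -0.01). Pold1, the catalytic subunit of polymerase delta, stood at 128, 145 and 187 CPM in vehicle and 52.1, 63.4 and 56.4 CPM in treated libraries (log2 fold change -1.42 ± 0.36, edgeR adjusted p = 0.172). Pole4, a small histone-fold subunit of polymerase epsilon, stood at 90.3, 79.7 and 91.0 CPM against 202, 208 and 242 CPM (1.32 ± 0.33, edgeR adjusted p = 0.172). Both separated the groups, in opposite directions. Between niches in treated hosts 5 of the 41 were higher (7.13% of all genes) and 2 lower (3.5%), with Dnmt1, the maintenance DNA methyltransferase, at 1.40 ± 0.29 (edgeR adjusted p = 0.379) and Pold1 at 1.33 ± 0.35 (edgeR adjusted p = 0.383).

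Regulators of the retinoblastoma pathway (23 genes) numbered 3 higher (10.1% of all genes) and 3 lower (8.11%) in WT treated against WT vehicle libraries at an unadjusted p under 0.05. Both shares are a little above those of all genes, on small counts and without a test. Cdkn1a, the p53-induced inhibitor of cyclin-dependent kinases, stood at 32.8, 12.7 and 2.96 CPM in vehicle and 79.4, 64.3 and 55.0 CPM in treated libraries. The groups were apart, with a log2 fold change of 2.03 ± 0.76 (edgeR adjusted p = 0.210), and KO treated 257 again stood with the WT treated libraries (78.9 CPM against 26.1 and 15.9 CPM in 263 and 276). The repressors of E2F targets E2f4 (-1.44 ± 0.47) and Rbl2 (-1.69 ± 0.58) had edgeR adjusted p-values of 0.182 and 0.190. Of 20 mitosis and G2/M genes, 2 were higher and 0 lower in the same comparison, beside the same 10.1% and 8.11% of all genes. The 2 were Birc5, an inhibitor of apoptosis with a role in chromosome segregation (1.15 ± 0.36), and Ube2c, an enzyme of the anaphase-promoting complex (1.30 ± 0.49), with edgeR adjusted p-values of 0.177 and 0.212. Mki67, a marker of cycling cells, was lower without overlap (198, 214 and 257 CPM against 183, 134 and 132 CPM), as were 10.1% of all genes. Its log2 fold change was -0.58 ± 0.31 (edgeR adjusted p = 0.333). For KO against WT in treated hosts, 17 of 17 erythroid and 2 of 14 granulocyte markers were above 0, when 53.9% of all genes were. At an unadjusted p under 0.05, 16 erythroid markers were higher (7.13% of all genes) and 7 granulocyte markers lower (3.5%). The part of these cell types in the differences of the replication genes was not tested.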

How the data were processed

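The members and all gene lists were chosen with earlier results of these data known. Per the labels' protocols, a Qiagen RNeasy Plus Micro kit yielded the RNA, SMARTer Ultra Low Input v4 chemistry amplified it, and Nextera XT gave the sequencing libraries. The submitters' processing notes name build GRCm39 and the tools STAR 2.7.9a, HTSeq, Trim Galore 0.6.7, DESeq2 and bcl2fastq. The annotation release, strand setting and filters are not given in the sources used here. Counts of reads per Ensembl gene were deposited unnormalized, as whole numbers, for 53700 genes with 5 summary lines. Those lines were left out of library sizes; reads outside genes were 5.98% to 30.4%, at several places 11.6% to 30.0% and ambiguous 2.34% to 6.31% of each library. Symbols, exon overlaps and transcript lengths came from GENCODE annotation of build GRCm38, matched by Ensembl ID, and promoters from RefSeq, so no coordinates are on the build of the counts.

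Testing used edgeR 4.0.16 in R 4.3.3: filterByExpr on the 4 groups (16639 genes), TMM scaling and 1 robust quasi-likelihood fit of the 11 libraries with 5 contrasts. Benjamini-Hochberg adjustment ran over all genes tested, and a gene was called at an adjusted p under 0.05. SE values follow from the log2 fold change and its F statistic. The biological coefficient of variation was 0.783. No pairing or batch term was used, since the labels give neither. Depth ran from 8.13 to 31.1 M gene counts without molecular identifiers. The steps were tested on simulated counts.

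Fold changes are given in full for Mcm5, Cdc6, Pcna, Tyms, Ccne1 and E2f1 and for the 4 members with the smallest p in each contrast. From each other list the 2 genes with the smallest p, Mki67 and Cdkn1a could be named. Alternatives were DESeq2 size factors, no filter, a mean CPM of at least 10, the DESeq2 1.42.0 Wald test, limma 3.58.1 voom with quality weights, a covariate for the percentage of non-genic reads, removal of each library's length trend (lowess, span 0.3), a fit of just both groups at hand, and omission of each library in turn, or of 253 and 265 together. Counts of members without overlap were repeated without 257, without 240 and without 253 and 265, a choice made after seeing the data.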

Additional observations from a re-analysis of the deposited data

How the results depend on the processing

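No paired analysis was possible because each number in the titles belongs to 1 library. Of 701 values of single genes under the alternatives, 642 kept their direction and side of the threshold, 27 moved past it in the same direction and 32 changed direction, and the cause of these changes was not tested. The number of members called for treated against vehicle in the WT niche was 0 in edgeR. It was 3 with no filter on low counts (0.768% of all genes) and 5 with DESeq2 (6.65%). With a covariate for the percentage of non-genic reads it was 11 (12.6%), and with 1 library left out 0 to 1 (1 without 240, 1.15%). For KO against WT in treated hosts it was 2 with DESeq2 (1.5% of all genes) and 23 with limma voom (25.8%). It was 0 to 9 there when 1 library was left out (9 without 257, 9.26%). For KO against WT in vehicle hosts it was 0 to 1 (1 without 240, 0.515% of all genes).

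The median log2 fold change of the 38 for treated against vehicle in the WT niche (-0.27) was -0.030 with limma voom, -0.057 with the covariate, 0.25 without 253 and 265 and -0.24 to 0.12 when 1 library was left out. In the KO niche (-0.09) the range was -0.30 (without 276) to 0.069 (without 263), and for KO against WT in treated hosts (0.39) it was -0.0066 (without 276) to 0.48 (without 263). In vehicle hosts (0.30) the median was 0.56 without 253 and 265. For the interaction (-0.08) it was -0.35 with limma voom, 0.23 with the covariate, -0.46 without 253 and 265, and -0.46 (without 276) to 0.16 (without 257).

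Directions changed for single genes with small estimates. With limma voom, Cdc6 became 0.42 for treated against vehicle in the WT niche, and Ccne1 -0.10, Tyms -0.046 and Pcna -0.13 in the KO niche, with Mcm5 at -0.050 for the interaction. With the covariate, Ccne1 became -0.056 for treated against vehicle in the WT niche, Mcm5 -0.14 and E2f1 -0.23 for KO against WT in vehicle hosts, and Cdc6 0.64 and Ccne1 0.29 for the interaction. With the length trend removed, the interaction of Mcm5 became -0.047 and that of Ccne1 0.21. Without 253 and 265, Cdc6 became 0.93 for treated against vehicle in the WT niche and the interaction of Mcm5 -0.59. With 1 library left out, treated against vehicle in the WT niche ran from -0.068 to 0.70 for Ccne1 and from -0.75 to 0.54 for Cdc6. In the KO niche it ran from -0.0085 to 0.27 for Pcna and from -0.45 to 0.52 for Ccne1. KO against WT ran from -0.16 to 0.95 for Ccne1 in treated hosts and from -0.011 to 0.28 for E2f1 in vehicle hosts. The interaction ran from -1.12 to 0.16 for Cdc6, from -0.77 to 0.33 for Ccne1 and from -0.20 to 0.58 for Mcm5. Groups of 2 or 3 libraries and a coefficient of variation of 0.783 limit every test here. Where KO vehicle, or WT vehicle without 253 and 265, was left with 1 library, its spread was taken to equal that of the other groups. Depth differed with treatment, and the 2 cannot be told apart.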
